A study of Mus musculus with 4 samples.

Results

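The promoters of long noncoding RNAs (lncRNAs) that stand away from protein-coding promoters were described by the CpG methylation of mouse liver. A member was the transcription start site (TSS) of an autosomal RefSeq noncoding transcript (NR_ accession prefix) longer than 200 bp, with a symbol that did not begin with Mir or Snor. The TSS had to lie more than 2 kb from every TSS of a coding transcript (NM_ prefix) and to have at least 3 cytosines within 1 kb that were measured in all mice. Of 7575 autosomal noncoding transcripts, 3359 met the limits on length, name and distance and 824 also had the cytosines, which gave 679 distinct TSS of 647 gene symbols. All 16942 promoter windows with enough cytosines were made up of these 679 and of 16263 coding TSS. The rule used no methylation value.

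RefSeq gave the biotype lncRNA to 569 of the 679 members. The others were 84 TSS of transcribed pseudogenes, 15 noncoding variants of protein-coding genes and 11 of other classes, among them the telomerase RNA Terc and the small nuclear RNA Rn7sk. The set therefore held more than lncRNAs in the strict sense, and values for the lncRNA biotype alone stand beside the first comparison.

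Enhanced reduced representation bisulfite sequencing (ERRBS) reads CpG-rich fragments cut by restriction enzymes, MspI (which cleaves at CCGG) and TaqαI. It was done on whole livers of 4 male mice aged between 6 and 8 weeks and kept on a normal diet, 2 on an undefined mixed background that includes C57BL/6J (Mixed-1 and Mixed-2) and 2 C57BL/6 (B6-1 and B6-2). The backgrounds were kept at separate institutions, and the B6 libraries were deeper, with a mean coverage of 63.7 and 60.1 reads per cytosine against 44.2 and 49.0, so background, housing and depth cannot be told apart. Pairs of values are given with replicate 1 of a background before replicate 2. The measure was freqC, the percentage of reads at a cytosine that stayed C after bisulfite treatment, and a promoter's value in a mouse was the mean freqC of its window of 1 kb on each side of the TSS.

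In mammals most CpGs are methylated, while CpG-rich promoters of active and of poised genes are kept free of methyl groups. Promoters poor in CpG are often methylated in tissues that do not use them. At imprinted genes, 1 parental allele is methylated and the other is not, and several well-known lncRNAs start at such sites. Many lncRNAs are expressed in few tissues and start within or between other genes.

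As a check of the tissue, 4 of 12 promoters of hepatocyte genes had a measured window. These were Apoa2 at 0.651%, F2, Fgb and Hnf4a, of which Hnf4a was the highest at 30.9%. Among promoters of genes of other cell types, Spi1, a regulator of blood cells, stood at 77.7%, while Des, Krt19 and Epcam were hypomethylated. The remaining hepatocyte promoters, Alb among them, had too few common cytosines.

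The following stretches of 300 bases show what the classes look like in sequence. Each is the stretch within 1 kb of the TSS that held the most measured cytosines and touched no coding exon, from the GRCm38.p6 (mm10) reference, 5′ to 3′ on the strand of the transcript, and capitals mark the CpGs with a cytosine measured in all mice. The first is of 4930526I15Rik (chr9:124423925-124424224, plus strand), the member with the most measured cytosines.
4930526I15Rik: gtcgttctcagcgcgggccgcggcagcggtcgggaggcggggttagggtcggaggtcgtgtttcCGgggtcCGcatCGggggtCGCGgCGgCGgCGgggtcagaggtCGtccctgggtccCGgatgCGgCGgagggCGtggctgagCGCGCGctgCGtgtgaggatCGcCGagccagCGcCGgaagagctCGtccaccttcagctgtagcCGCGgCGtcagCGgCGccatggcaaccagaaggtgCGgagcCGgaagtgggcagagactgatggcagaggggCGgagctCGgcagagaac
It began 138 bp after the TSS and held 41 CpGs, 31 of them measured, with a mean freqC of 0.0592%. The next is of Dancr (chr5:74093076-74093375, plus strand), which stands for the RNAs made in most cells and was at 0.105% over its 31 CpGs.
Dancr: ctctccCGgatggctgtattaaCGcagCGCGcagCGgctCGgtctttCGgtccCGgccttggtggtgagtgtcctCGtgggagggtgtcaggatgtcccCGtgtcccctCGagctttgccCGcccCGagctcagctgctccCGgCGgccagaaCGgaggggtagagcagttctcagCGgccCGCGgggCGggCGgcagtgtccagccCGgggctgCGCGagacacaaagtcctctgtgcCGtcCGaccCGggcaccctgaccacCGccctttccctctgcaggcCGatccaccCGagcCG
The third is of Peg13 (chr15:72809700-72809999, minus strand), an imprinted lncRNA in an intron of Trappc9. Its 16 measured CpGs averaged 40.1%, from 35.7% in B6-1 to 45.1% in Mixed-1.
Peg13: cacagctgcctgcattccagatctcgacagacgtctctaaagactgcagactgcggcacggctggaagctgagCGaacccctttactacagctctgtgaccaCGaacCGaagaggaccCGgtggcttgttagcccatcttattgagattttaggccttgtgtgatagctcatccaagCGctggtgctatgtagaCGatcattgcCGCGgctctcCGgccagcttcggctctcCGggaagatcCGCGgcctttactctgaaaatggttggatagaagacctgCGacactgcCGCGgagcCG
The fourth is of Zim3 (chr7:6977155-6977454, minus strand), the only member that was both CpG-dense and hypermethylated. Its 19 measured CpGs averaged 86.3%.
Zim3: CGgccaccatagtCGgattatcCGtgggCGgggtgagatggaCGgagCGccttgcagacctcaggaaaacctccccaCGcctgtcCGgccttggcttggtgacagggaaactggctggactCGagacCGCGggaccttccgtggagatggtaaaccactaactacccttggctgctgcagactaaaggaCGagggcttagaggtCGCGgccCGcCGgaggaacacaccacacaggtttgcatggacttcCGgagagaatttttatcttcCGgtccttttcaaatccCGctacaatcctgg
The last pair is of 6720473M11Rik (chr16:3632885-3633184, minus strand), which had the widest range over the mice, and Gm10505 (chr17:27324691-27324990, plus strand), which had the lowest p between the backgrounds. Only 5 and 8 CpGs were measured in them.
6720473M11Rik: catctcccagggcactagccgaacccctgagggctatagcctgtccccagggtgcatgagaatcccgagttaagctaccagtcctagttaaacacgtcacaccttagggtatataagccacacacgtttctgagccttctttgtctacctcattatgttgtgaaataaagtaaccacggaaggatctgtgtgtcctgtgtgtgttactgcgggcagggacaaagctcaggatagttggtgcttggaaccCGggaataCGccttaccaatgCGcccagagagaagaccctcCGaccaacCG
Gm10505: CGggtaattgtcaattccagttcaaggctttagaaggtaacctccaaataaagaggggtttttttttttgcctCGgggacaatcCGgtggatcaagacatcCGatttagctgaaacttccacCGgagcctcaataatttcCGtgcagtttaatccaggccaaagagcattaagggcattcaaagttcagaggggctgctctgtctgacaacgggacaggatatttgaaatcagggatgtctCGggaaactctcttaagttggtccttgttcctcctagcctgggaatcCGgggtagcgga

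Following the bounds used for single cytosines in this study, promoters below 20% were called hypomethylated, those above 80% hypermethylated and the rest intermediate. By their mean over the mice, 316 lncRNA promoters were hypomethylated, 203 intermediate and 160 hypermethylated. In the single mice the hypomethylated numbered 319 and 313 with the mixed background and 318 and 322 with B6, and the hypermethylated 158 and 165 against 156 and 160. The shares were 46.8% ± 0.551 (SD, n = 4) hypomethylated, 29.6% ± 0.487 intermediate and 23.5% ± 0.569 hypermethylated. The backgrounds overlapped in all 3 classes, and two-sided exact permutation tests gave p = 0.667 for the outer classes and p = 1 for the middle one, where 2 mice against 2 cannot go below 0.333.

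The coding promoters divided otherwise, with 90.4% ± 0.0393 (SD, n = 4) hypomethylated, 6.22% ± 0.068 intermediate and 3.42% ± 0.0658 hypermethylated. In steps of 10 points, the lncRNA promoters had a peak at the low end with 272 below 10%, a trough with 19 between 30% and 40%, and a second rise with 82 between 80% and 90% and 78 above that. Below 1% stood 150 lncRNA promoters (22.1%) and 10653 coding promoters (65.5%). The highest mean, 97.8%, was that of the pseudogene Ndufs5-ps.

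**Figure D1:**
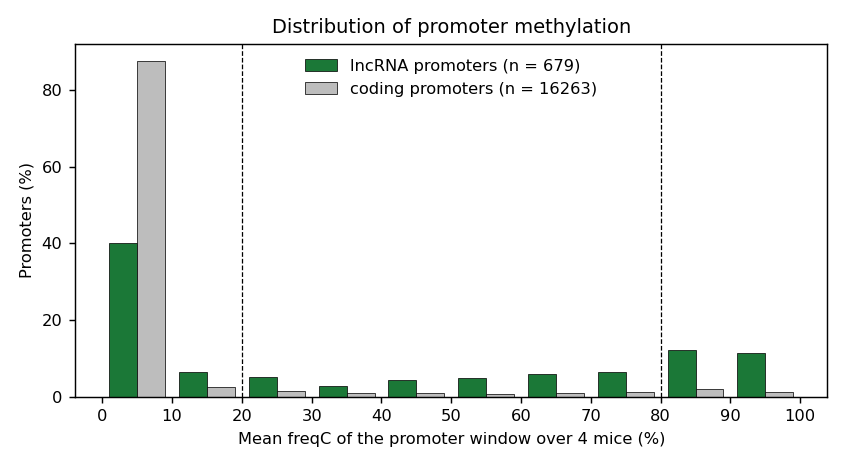
Share of promoters (%) in steps of 10 percentage points of mean freqC over the 4 mice, for 679 lncRNA promoters (green) and 16263 coding promoters (grey), with dashed lines at the class bounds of 20% and 80%. The lncRNA promoters have a second rise above 80%, where they hold 23.6% of their number against 3.48% of the coding promoters.

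The mean of the lncRNA promoters was 38.4% and 39.0% in the mixed mice and 38.4% and 38.5% in the B6 mice. The coding promoters were at 7.41% and 7.42% and at 7.30% and 7.36%. The lncRNA promoters were thus higher in 4 of 4 mice, by 31.2 points (31.0 to 31.5). The two-sided exact sign-flip permutation test gave p = 0.125, the smallest that 4 mice allow. Every mouse reads the same promoters, so this test, here and below, does not measure the spread between promoters. The difference was 30.9 points for the lncRNA biotype alone, and pseudogenes lay 6.40 points above that biotype while the 15 variants of coding genes lay 11.6 points below it (26.7% against 38.3%).

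Much of this gap went with the number of measured cytosines and with CpG density. An lncRNA window held a median of 9 measured cytosines (3 to 161) and 45 CpGs, a coding window 42 and 90. Hypomethylated lncRNA promoters had a median of 22 measured cytosines, intermediate ones 6 and hypermethylated ones 5. Counted by single cytosine instead of by promoter, 78.3% ± 0.0981 (SD, n = 4) of the 11903 cytosines were below 20% and their mean freqC was 16.6% ± 0.0945, against 2.19% ± 0.0351 over the 677049 cytosines at coding promoters. Among windows with 10 or more cytosines, 325 lncRNA promoters averaged 17.4% and 14089 coding promoters 3.14%.

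Promoters were placed in 3 density classes by the CpGs in 500-bp windows, as high (observed to expected CpG above 0.75 with over 55% GC), low (ratio below 0.48 throughout) or intermediate. High density applied to 31.2% of the lncRNA promoters and to 75.9% of the coding ones. The 212 dense lncRNA promoters averaged 5.32% ± 0.206 (SD, n = 4), and 193 of them were hypomethylated. Of the 300 with intermediate density, 103 were hypomethylated, 102 intermediate and 95 hypermethylated, with a mean of 49.0% ± 0.215. Low density applied to 167, with a mean of 62.0% ± 0.648, and 20 of these were hypomethylated.

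Compared within density classes, the lncRNA promoters remained above the coding ones in every mouse. The difference was 3.76 points at high density (5.32% against 1.56%), 32.3 points at intermediate density (49.0% against 16.7%) and 7.73 points at low density (62.0% against 54.3%), each with exact p = 0.125. The widest gap was at intermediate density, where 77.3% of the coding but 34.3% of the lncRNA promoters were hypomethylated.

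**Figure D2:**
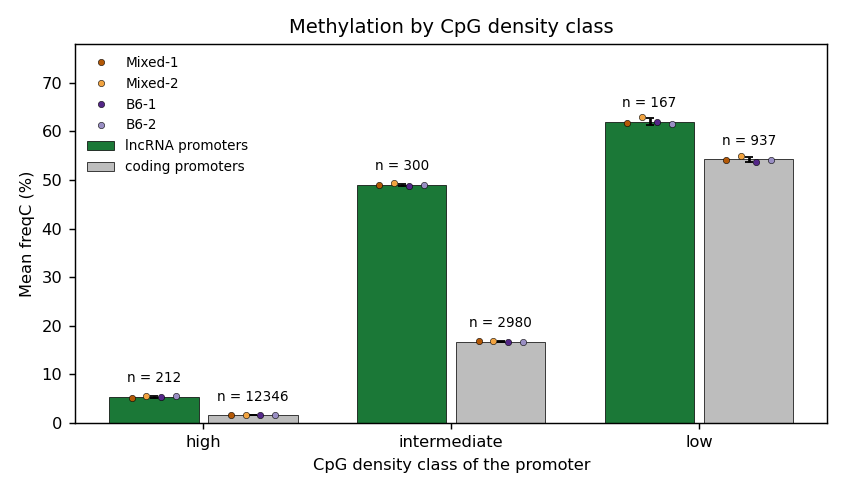
Mean freqC (%) of lncRNA (green) and coding (grey) promoters by CpG density class, with bars for the mean of the 4 mice, error bars for the SD and a point for each mouse. The points of the mice lie close together on each bar, and the gap between the kinds is widest at intermediate density, 49.0% against 16.7%.

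The sequence near the TSS followed the same order. In the 300 bases from 250 before the TSS to 50 after it, the median number of CpGs was 15 in hypomethylated, 7 in intermediate and 6 in hypermethylated lncRNA promoters, and 21 over all coding promoters. The GC-box letters GGGCGG, on either strand, were present in 56.3%, 20.7% and 8.12% of the 3 classes, in 34.3% of all lncRNA promoters and in 65.6% of the coding ones. The MspI site CCGG, which reads alike on both strands and can share bases with the GC-box letters, was present in 77.8%, 66.5% and 53.8%, and the letters TATAAA on either strand in 9.18%, 11.3% and 11.2%. Over all coding promoters CCGG was found in 85.3% and TATAAA in 6.44%. In the RefSeq promoter table of the same build, 462 of the 679 TSS had an entry.

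Of the 212 dense promoters, 19 were not hypomethylated. Airn, Kcnq1ot1 and Peg13, lncRNAs of imprinted domains, stood between 34.4% and 40.03%. Zim3, of the imprinted Peg3 domain, was the only 1 above 80%, at 78.2% and 88.7% in the mixed mice and at 90.5% and 89.7% in the B6 mice. Transcribed pseudogenes, 12.4% of all members, gave 6 of the 19, among them Rps4l, a ribosomal protein gene copy, at 35.2%, and Zfa-ps at 70.5%. Within 500 bp of the TSS Rps4l was at 16.0% and Rab10os, at 22.1% in the whole window, at 12.9%, both hypomethylated. Most of the others had provisional Rik or Gm symbols, such as 1700030C10Rik at 20.98%. Vmn2r29, a vomeronasal receptor gene, was at 31.6%. Where such a gene has near-identical copies, the placement of its reads is uncertain.

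Of the 30 names on the imprinted list, 6 genes had measured TSS, 7 in number, of which 6 were intermediate and 1 was hypermethylated. Names were matched by symbol, so a gene listed under another of its names was missed. The symbols Zim3 and Gnasas1 were not on the list, whereas Nespas was, but no member had that symbol. Gnasas1 starts antisense in an intron of Gnas. Gnasas1 was at 53.9% and 54.8% in the mixed mice and at 41.8% and 40.5% in the B6 mice over 6 cytosines. H19, an imprinted lncRNA next to Igf2, was at 42.1% and 33.4% in the mixed mice and at 36.4% and 49.6% in the B6 mice. Airn, which starts in an intron of Igf2r on the opposite strand and silences it in cis, was at 46.9% and 45.6% in mixed and 26.1% and 41.2% in B6 mice. Kcnq1ot1, antisense within Kcnq1, was at 37.0% and 34.7% in mixed and 41.2% and 24.8% in B6 mice. The mice overlapped between backgrounds at H19 and Kcnq1ot1 but not at Airn, where both mixed mice were above both B6 mice and B6-1 was lowest. That order of the backgrounds was found at 17.6% of all windows.

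Meg3, a maternally expressed lncRNA, had 2 TSS in the set. The one at chr12:109540996 was at 41.9% and 44.7% in the mixed mice and at 47.1% and 46.9% in the B6 mice. The one at chr12:109545398, further downstream, was at 86.9% and 79.2% in the mixed mice and at 85.0% and 77.7% in the B6 mice. The backgrounds overlapped there but not at the first, where both B6 mice were above, an order found at 17% of all windows. Nctc1, next to H19, was at 60.7% ± 3.94 (SD, n = 4) and Peg13 at 40.03% ± 3.49.

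The imprinted values were intermediate at the single cytosine as well. Averaged over the mice, 21 of 21 cytosines at Peg13, 10 of 10 at Airn, 7 of 7 at Kcnq1ot1, 6 of 6 at H19 and 6 of 6 at the first Meg3 TSS lay between 20% and 80%. At Kcnq1ot1 they lay from 32.9% to 35.4%, with coverage from 48 to 140 reads. At Nctc1 the 5 cytosines ran from 33.5% to 83.9%. Among all 53 intermediate lncRNA promoters with 10 or more cytosines, 30 had mostly intermediate cytosines, and 19 (35.8%) held both cytosines below 20% and above 80%.

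**Figure D3:**
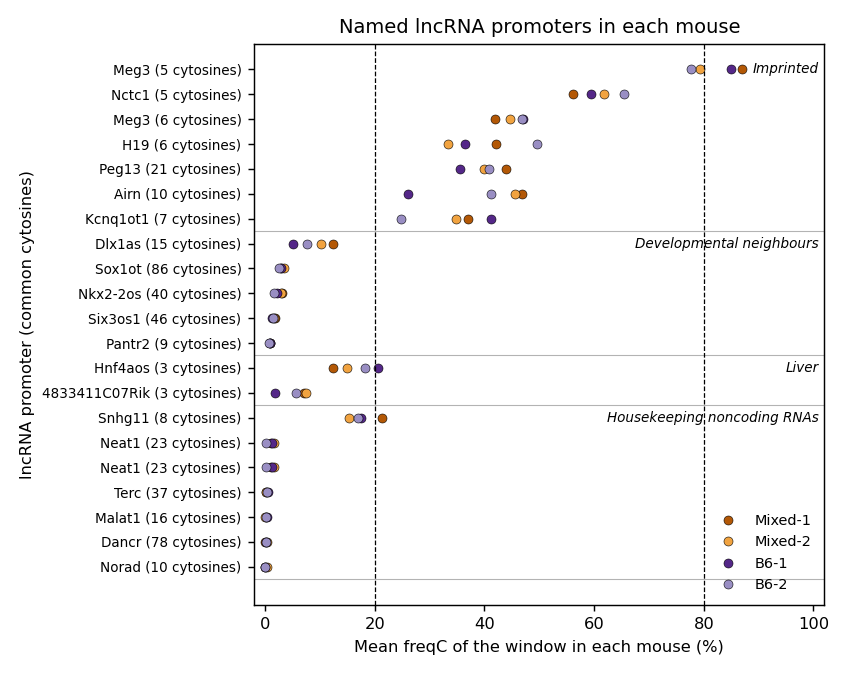
Mean freqC (%) of the window in each mouse (a point per mouse) for the measured promoters of the imprinted, developmental and liver lists and 6 genes of the housekeeping list, with the number of common cytosines in parentheses and dashed lines at 20% and 80%. The promoters of the imprinted list lie between the bounds, except the downstream Meg3 TSS at 82.2%, and the housekeeping promoters shown lie near 0 except Snhg11 at 17.8%.

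The housekeeping list named noncoding RNAs taken as made in most cells and added every Snhg gene by its symbol alone. Kcnq1ot1 was also named on it but was counted only with the imprinted list, where it was intermediate at 34.4%. Apart from Kcnq1ot1, the list had 23 measured TSS of 21 genes, and all 23 were hypomethylated with a median of 0.172%. Over all 679 members the median was 24.96%, but all listed TSS except those of Snhg4 and Snhg11 were CpG-dense. Over the 212 dense members the median was 0.532%, and 91.0% of them were hypomethylated. Malat1, a nuclear RNA of high abundance, was at 0.187% and 0% in the mixed mice and at 0.312% and 0.110% in the B6 mice. Terc was at 0.259% ± 0.150 (SD, n = 4) over 37 cytosines, and Neat1, the scaffold of paraspeckles, at 1.00% ± 0.635 over 23. Among the small nucleolar RNA host genes, Snhg11 stood apart at 21.4% and 15.3% in mixed and 17.5% and 16.9% in B6 mice, while the next highest, Snhg16, was at 0.881%. Its window held 8 cytosines and had intermediate CpG density.

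No methylated read was found in any mouse at 3 members, Snhg3, Rn7sk and C920006O11Rik, the last of which shares its cytosines with Rn7sk. Coverage summed over the 10 cytosines of Snhg3 was 261 and 277 in the mixed mice and 575 and 735 in the B6 mice. Of these sums, 3 would make 1.15%, 1.08%, 0.522% and 0.408% in turn. At Rn7sk the coverage summed over 3 cytosines was 45 to 138, of which 3 would make up to 6.67%. The methylation that could have been missed is larger than these shares. A read is counted at each cytosine it covers, and reads of 1 amplified fragment are not independent molecules.

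The list of developmental neighbours held 32 names, chosen as lncRNAs beside transcription factor genes that pattern the embryo. Of these, 5 members were measured, and all 5 were hypomethylated in liver, as were 46.5% of all 679 members. Among CpG-dense members, which included Pantr2, Nkx2-2os and Sox1ot, 91.0% were hypomethylated. At intermediate density, which applied to Six3os1 and Dlx1as, the share was 34.3%. Pantr2 was at 0.791%, Six3os1 at 1.54%, Nkx2-2os at 2.44% and Sox1ot at 2.93%. Dlx1as, antisense at Dlx1, was higher, with 12.3% and 10.2% in the mixed mice and 5.04% and 7.62% in the B6 mice. Both mixed mice were above both B6 mice, an order found at 17.6% of all windows. Its window held 15 cytosines, and the 1 at chr2:71537533 alone differed by -57.3 points between backgrounds. From the liver list, Hnf4aos starts in an intron of the hepatocyte regulator Hnf4a on the opposite strand. It was at 12.4% and 14.9% in mixed and 20.6% and 18.2% in B6 mice, the mixed mice below, an order found at 17% of all windows. The other, 4833411C07Rik, was at 5.45% ± 2.55 (SD, n = 4). Both rested on 3 cytosines.

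The members with the most measured cytosines showed each class at its best depth. The hypomethylated ones, with 129 to 161 cytosines, were 4930526I15Rik, 2 TSS of 6430573P05Rik, Gm7854 in an intron of Cpeb2, and B330016D10Rik, all at 0.204% or lower. The hypermethylated ones were Gm16617 in an exon of Arhgef40 (87.1% ± 0.90, SD, n = 4, 49 cytosines), Zim3, Gm5105, 1700120K04Rik (91.1% ± 0.929) and 1700123L14Rik in an intron of Tafa1. Apart from Zim3, these hypermethylated promoters had a range over the mice of 4.53 points or less. The intermediate ones were Rps4l, Vmn2r29, 1700030C10Rik, Gm13034 and Rab10os, with 32 to 52 cytosines and means from 21.0% to 35.2%.

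Whether the TSS lay within a coding gene was asked next. Of the 679 TSS, 151 (22.2%) lay inside the body of a coding transcript, of 143 host genes, and 528 outside. Among the 151, 127 were on the strand opposite to the host, 23 on the same strand and 1 had hosts on both, and 34 lay in an exon and 117 in an intron. The mean freqC was 50.9% ± 0.333 (SD, n = 4) inside and 35.0% ± 0.246 outside. The difference was 15.9 points (15.8 to 16.1), in the same direction in 4 of 4 mice with exact p = 0.125. It was 10.4 points when the bodies of predicted coding transcripts (XM_ prefix) also counted.

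By class, 48 of the TSS inside coding genes were hypomethylated, 51 intermediate and 52 hypermethylated, against 268, 152 and 108 outside. The difference was 19.9 points at intermediate CpG density (64.4% against 44.5%), 3.81 points at high density (8.51% against 4.70%) and 1.20 points at low density (62.9% against 61.7%), where it ran from 0.229 to 1.81 points over the mice. TSS in exons averaged 54.7% and those in introns 49.8%, and TSS opposite to the host averaged 52.3% and those on its strand 43.6%. Both of these differences had the same sign in 4 of 4 mice and exact p = 0.125, but they compared only 34 exonic and 23 same-strand TSS. The mice share these TSS, so the p leaves out the spread between TSS.

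Around the TSS, coding promoters had a trough that reached 3.07% in the 200 bp before it. The lncRNA promoters outside genes had a shallower one, from 47.7% at 1000 to 800 bp before the TSS to 21.3% at 400 to 200 bp before it and back to 37.7% at 800 to 1000 bp after it. Inside coding genes the profile had no such return, with 57.1% at the upstream end, 48.5% just before the TSS, 40.9% just after it and 31.1% at the downstream end. Each bin rested on different windows, from 26 to 57 inside genes and from 63 to 273 outside.

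**Figure D4:**
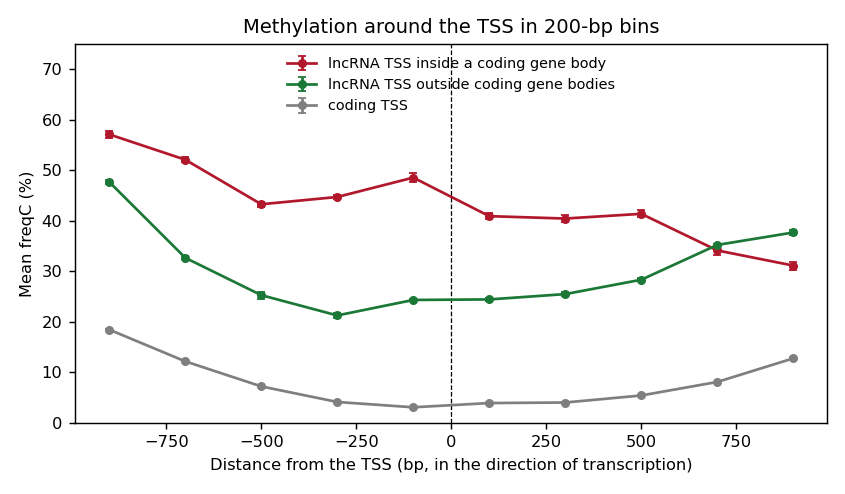
Mean freqC (%) in 200-bp bins by distance from the TSS in the direction of transcription, for lncRNA TSS inside a coding gene body (red), lncRNA TSS outside (green) and coding TSS (grey), with error bars for the SD over 4 mice. The green line dips to 21.3% upstream of the TSS, the red line stays above it until 600 bp after the TSS, and the grey line falls to 3.07%.

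The host's own promoter was mostly hypomethylated, as were 90.3% of all coding promoters by their mean. For 127 of the TSS inside genes a host promoter was measured too, and 110 of these host promoters were hypomethylated. A host's value was the mean over its measured coding TSS, without those whose windows overlapped an lncRNA window. It can thus blend several TSS, while the 90.3% counts single coding TSS. Some of the pairs set a noncoding variant against its own gene, as at Arrdc3 and Casz1. The lncRNA promoters averaged 51.1% and the host promoters 9.19%, a difference of 41.9 points (41.8 to 42.2, exact p = 0.125). In 41 pairs a hypermethylated lncRNA promoter lay in a gene with a hypomethylated promoter, such as Gm17089 (91.3%) in an intron of Etv6 and 9630013K17Rik (93.5%) in an exon of Cox10. The reverse was seen in 3 pairs, which included Rnu3b3 in Tex14 (0.0710% against 92.0%) and Unc45bos in Unc45b (1.89% against 86.1%). In 2 pairs both were hypermethylated, and in 36 both were hypomethylated.

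At Airn the host promoter, that of Igf2r, was at 34.7% and so intermediate as well, whereas that of Trappc9, the host of Peg13, was at 0.248%. The host pairs named here were chosen after their values were seen.

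The distance to the nearest coding TSS went with methylation in part. Members at 2 to 5 kb averaged 33.9% (57 TSS), at 5 to 20 kb 33.4% (191), at 20 to 100 kb 38.3% (301) and beyond 100 kb 48.7% (130). The median number of CpGs per window fell from 51 to 38.5 over these bins, and the median number of measured cytosines from 12 to 6. Of 482 members whose nearest coding TSS was measured, 442 had a hypomethylated one, close to the 90.3% of all coding promoters. Among these 442, 209 lncRNA promoters were hypomethylated, 132 intermediate and 101 hypermethylated. These were nearly the proportions of all 679 members (316, 203 and 160). The 69 TSS that lay in a sequence masked as a repeat averaged 50.7%, against 37.2% for the other 610, higher in 4 of 4 mice (exact p = 0.125).

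Near the limits of the rule, the values were as follows. The members closest to a coding TSS were 2210039B01Rik, 2088 bp away, at 40.2% and Gm7854, 2101 bp away, at 0.204%. Left out because they lay just within 2 kb were D430036J16Rik, 1902 bp away, at 24.6% and Cbarp, 1980 bp away, at 0.124%. The 983 noncoding TSS within 2 kb of a coding TSS averaged 4.67%, and 94.3% of them were hypomethylated. The 91 members with 3 common cytosines averaged 63.4% and the 101 TSS with 2, which were left out, 65.1%.

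Most lncRNA promoters kept their class between mice. The class was the same in all 4 mice for 598 of 679 (88.1%), and none was hypomethylated in 1 mouse and hypermethylated in another. For the coding promoters the share was 97.5%. The range, highest minus lowest mouse, had a median of 0.808 points in hypomethylated, 9.06 points in intermediate and 5.15 points in hypermethylated lncRNA promoters. Coding promoters had medians of 0.294, 8.08 and 5.56 points in the same classes.

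A range of 10 points or more was found at 116 lncRNA promoters, or 17.1%, where all promoter windows gave 3.84%. The 116 were 85 of the 203 intermediate (41.9%, coding 38.4%), 18 of the 160 hypermethylated (11.2%, coding 12.9%) and 13 of the 316 hypomethylated promoters (4.11%, coding 0.490%). Windows with 3 to 9 cytosines made up 96 of the 116. With 10 or more cytosines, 20 of 325 (6.15%) reached 10 points. They were 14 of 53 intermediate (26.4%, coding 22.5%), 3 of 28 hypermethylated (10.7%, coding 3.25%) and 3 of 244 hypomethylated promoters (1.23%, coding 0.184%). Without Mixed-1 the count was 69 and without B6-1 it was 76.

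The mouse farthest from the others at these 116 promoters was Mixed-1 at 39, B6-1 at 33, Mixed-2 at 24 and B6-2 at 20. Over all 679 lncRNA promoters the mice came in the same order, with 189, 175, 164 and 151. A range of 20 points or more was reached at 17 TSS. Some of these share cytosines, as do 4930586N03Rik and 4930557F10Rik, both with 21.4% and 37.6% in mixed and 38.8% and 55.8% in B6 mice over the same 3 cytosines.

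**Figure D5:**
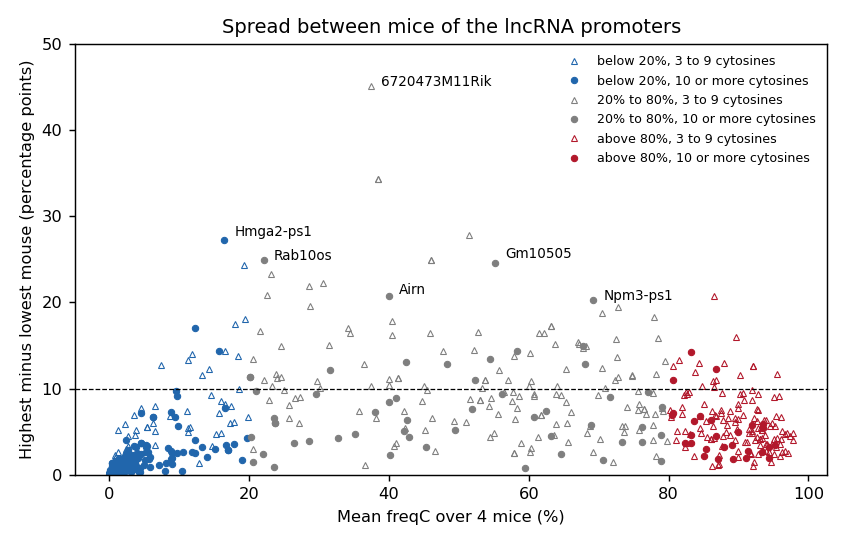
Range over the mice (highest minus lowest, in percentage points) against mean freqC (%) for each of the 679 lncRNA promoters, coloured by class, with filled circles for 10 or more measured cytosines, open triangles for 3 to 9 and a dashed line at 10 points. Ranges are small near 0 and widest at intermediate means, and 6720473M11Rik lies highest at 45.1 points.

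The widest range belonged to 6720473M11Rik, whose sequence is shown above. It was at 70.7% in Mixed-1 but at 27.4% in Mixed-2 and at 25.6% and 25.9% in the B6 mice. The difference was present at most of the 9 cytosines, as at chr16:3632894, with 91.9% of 37 reads in Mixed-1 and 37.3% of 51, 23.0% of 61 and 37.9% of 58 reads in the others. The cytosines at chr16:3632886 and chr16:3632934 were below 7% in every mouse. Each is 1 strand of a CpG whose other strand was methylated. The other strand at chr16:3632885 was at 90.9% in Mixed-1 and at 21.4% to 40.9% in the other mice. At chr16:3632935 it was at 73.0% in Mixed-1 and at 14.3% to 27.5% in the others. The cause of this strand difference was not tested.

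At other promoters Mixed-1 was the lowest mouse. Rab10os, the opposite-strand transcript named for Rab10, was at 4.62% in Mixed-1, at 29.6% in Mixed-2 and at 28.4% and 25.6% in the B6 mice over 32 cytosines. Hmga2-ps1, a pseudogene of Hmga2 in an intron of Sdccag8, was at 0.126% in Mixed-1, at 19.4% in Mixed-2 and at 27.4% and 18.6% in the B6 mice over 13 cytosines. At both, Mixed-2 lay with the B6 mice, and the mean of Hmga2-ps1 was 21.8% without Mixed-1, in the intermediate class. Npm3-ps1, picked after its values were seen, was at 54.4% in Mixed-1, at 74.6% in Mixed-2 and at 73.0% and 74.7% in the B6 mice. At Gm9926, the fifth with the widest range among windows of 5 or more cytosines and a median coverage of 20 or more, the values were 12.2% and 23.7% in mixed and 35.6% and 20.9% in B6 mice, which overlap.

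Gm10505 had the lowest p of any lncRNA window between the backgrounds. It was at 65.2% and 65.9% in the mixed mice and at 41.3% and 48.1% in the B6 mice, so that both mixed mice were above both B6 mice, an order found at 17.6% of all windows. The cytosine at chr17:27324933 was at 61.4% of 70 and 61.3% of 62 reads in the mixed mice and at 30.7% of 101 and 27.4% of 135 reads in the B6 mice. Reads in the window were fewer in the B6 mice at several cytosines, down to 12.

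Between the backgrounds the mean over all lncRNA promoters was 38.7% ± 0.410 (SD, n = 2) in mixed and 38.5% ± 0.0196 in B6 mice, a difference of -0.204 points within the spread of the mixed mice (exact permutation p = 1). Both mixed mice were above both B6 mice at 134 promoters and below them at 109, together 243 or 35.8%. Over all promoter windows the shares were 17.6% above, 17% below and 34.6% together, so the lncRNA promoters were close to the background.

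No single cytosine at an lncRNA promoter passed the threshold between backgrounds, an adjusted p under 0.01 and a difference of 25 points in a quasi-binomial model moderated with limma and adjusted over all 1276684 common cytosines. Over all cytosines 0.00517% passed. At an unadjusted p under 0.05 were 241 of the 11903, or 2.02%, and 1.93% of all cytosines, and edgeR's quasi-likelihood test also called 0 of them. The lowest p was at chr2:71537533 near Dlx1as, with 89.3% of 28 and 88.9% of 27 reads in the mixed and 35.8% of 67 and 27.8% of 79 reads in the B6 mice, a difference of -57.3 points (limma adjusted p = 0.0618). With the replicate block it was called, at adjusted p = 0.00638, where 0.024% of all cytosines were.

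Summed over windows, 0 of 679 lncRNA promoters and 0 of all 16942 windows passed the same threshold, and 63 (9.28%) had an unadjusted p under 0.05 against 6.68% of all windows. At an adjusted p under 0.05 and 10 points, 3 passed, or Gm10505, 1700012C14Rik and 9330175E14Rik, while 0.106% of all windows did. The pooled reads of Gm10505 differed by -26.6 points (limma adjusted p = 0.0185). For 1700012C14Rik and 9330175E14Rik the pooled reads differed by -13.2 points (adjusted p = 0.0235) and -11.9 points (adjusted p = 0.0490), but the means over their cytosines by only -1.84 and -0.553 points, an alternative added after the data were seen. With the replicate block, Gm10505 was 1 of the 4 windows that passed the stricter threshold (0.0236% of all), and without Mixed-2, where Mixed-1 alone is assumed to vary like the B6 mice, 6720473M11Rik passed at -46.6 points.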

How the data were processed

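ERRBS data of 4 livers were used, 1 library per mouse, grouped by strain background as labelled. The authors cut the DNA with restriction enzymes (for ERRBS they name TaqαI and MspI), converted it with bisulfite and mapped single-end reads to mm10. Their methods name BSMAP, while the submitters' processing notes name Bismark and SAMtools. The authors deposited, for each CpG cytosine and strand with a coverage of at least 10, the coverage as a count of reads and the percent of reads that were C or T, without normalization. Methylated reads were the percent times the coverage, and all values were whole within 0.01. Between 0.514% and 0.797% of cytosines in a mouse had reads with another base, which stayed in the coverage. A C-to-T variant reads like an unmethylated C, and 5-hydroxymethylcytosine reads like 5-methylcytosine.

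TSS, gene bodies and biotypes came from the RefSeq annotation of GRCm38.p6, the same build as mm10. All 1253673 autosomal cytosines common to the mice lay on a CpG of it. Window values were means over cytosines, with each strand of a CpG counted on its own. The median coverage summed over the cytosines of an lncRNA window ran from 341 in Mixed-1 to 557 in B6-1. A read was counted at each cytosine it covered. Alternatives changed the coverage minimum, window, distance, number of cytosines, class bounds, annotation and strand handling, and left out each mouse in turn. At 10 reads, 3 methylated reads make 30%. Members, gene lists and named members were chosen with earlier results of these data known. Some results of the tissue check are not reported here. Named members were those in the lists, the 5 with the most common cytosines in each class, the 5 with the widest range and those next to the limits of the rule.

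Values within a mouse were compared by two-sided exact sign-flip permutation tests over mice, and backgrounds by exact permutation or by a quasi-binomial model whose overdispersion was shrunk with limma (version 3.58.1, in R 4.3.3), with edgeR 4.0.16 on the read counts as an alternative. The moderation used the 267678 cytosines with at least 5 methylated and 5 unmethylated reads per mouse on average, a limit added to the planned fit after a first test on simulated data. On simulated data of 100000 cytosines with 200 changed by 50 points between backgrounds, the model recovered 135 (67.5%) and called 0 others. The changed cytosines were all of intermediate methylation, and the adjustment was over fewer cytosines than the 1276684 of the real data. The fit had also been altered after such a test, so the share recovered in the real data is not known from it. Nothing in the labels says that replicate numbers pair the mice, and deviations of same-numbered mice were unrelated (correlation -0.0254 over the lncRNA promoters). Python 3.11.15, numpy 2.4.6, scipy 1.17.1, pandas 2.3.3 and matplotlib 3.10.9 were used.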

Additional observations from a re-analysis of the deposited data

How the results depend on the processing

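The share of hypomethylated lncRNA promoters was 51.9% at a minimum coverage of 20, 53.7% within 500 bp of the TSS, 54.8% for the 1 kb upstream, 75.4% with at least 10 cytosines, 45.8% beyond 5 kb of a coding TSS, 44.7% when predicted coding TSS also counted, 46.0% with 1 TSS per gene and 40.2% below a bound of 10%. The hypermethylated share was 20.9%, 19.7%, 21.7% and 8.38% under the first 4 of these, 24.6% with predicted coding TSS, 24.3% with 1 TSS per gene, 22.2% for the lncRNA biotype and 11.8% above a bound of 90%. Leaving out 1 mouse gave 46.6% to 47.1% and 23.3% to 23.7%. A range of 10 points or more was found at 20 promoters with at least 10 cytosines, and at 69 to 96 with 1 mouse left out, where the range is taken over fewer mice. The lncRNA promoters stayed above the coding ones under all alternatives run (3.76 to 32.5 points) and those inside coding genes above those outside (10.4 points with predicted gene bodies to 20.6 points within 500 bp of the TSS), and the exact test could not pass its threshold in any of them. The difference between backgrounds, -0.204 points, ran from -0.494 to 0.0857 with 1 mouse left out and turned positive without Mixed-2. With the replicate block it was -0.204 again, by construction. The replicate block called 1 cytosine (Dlx1as) and 1 window (Gm10505) where the fit without the pairing called 0. Windows called numbered 3 at the looser threshold and 0 to 1 with 1 mouse left out. At Gm10505 the call at the looser threshold was lost without B6-1 (adjusted p = 0.0773) and with edgeR (adjusted p = 0.812). At 1700012C14Rik and 9330175E14Rik it was also lost with edgeR and with most of the mice left out in turn. Of the named promoters, 45 of 48 kept their class within 500 bp of the TSS, 51 of 52 at a minimum coverage of 20 and at least 54 of 56 with 1 mouse left out, and those that changed were 1700030C10Rik, Rab10os, Rps4l, Gm9926 and Hmga2-ps1. Single cytosines at the minimum coverage of 10, and windows of 3 to 9 cytosines, limit what can be seen between 4 mice.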
